A study of Mus musculus with 3 samples.

Results

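Dlk1, Meg3 and Rasgrf1 are 3 of the 37273 annotated genes of the mouse, and they belong to imprinted domains in which the paternal copy carries the methylation of the control region. The members were chosen by name and not by their values, and each gene body was taken with 40 kb upstream of it in mm9. Dlk1 lies on chromosome 12 at chr12:110691033-110701546, Meg3 at chr12:110779211-110809936 and Rasgrf1 on chromosome 9 at chr9:89804613-89921814, all on the plus strand of the GENCODE vM1 annotation. Together with the 77664 bp between Dlk1 and Meg3, these regions hold 3919 of 21342492 CpGs on the 19 autosomes, X and Y, and 314 of the 2526239 bins of 1 kb that contain a CpG.

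The counts came from 3 libraries of mouse embryonic stem (ES) cells. In CTCF ChIP-BisSeq, chromatin fragments pulled down with an anti-CTCF antibody were bisulfite sequenced, with 2 replicate libraries of wild type cells from mixed 129-C57Bl/6 blastocysts, each pooled from 5 ChIP experiments. WG-BisSeq, whole-genome bisulfite sequencing, was done in 1 library of REST knockout cells from Black Agouti 129 blastocysts. REST, which these cells lack by their label, is a repressor of neuronal genes. Both kinds of cells were grown on feeder cells or gelatine, and any share of feeder DNA in the libraries was not tested. Genotype, strain and assay all differ between the ChIP-BisSeq and WG-BisSeq libraries, so their effects cannot be told apart and the tests below compare libraries.

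An imprinted domain is controlled by a differentially methylated region (DMR), a CpG-rich stretch that is methylated on the copy from one parent only. Dlk1 encodes a transmembrane ligand related to the Notch ligands and is expressed from the paternal copy, while Meg3 is a non-coding RNA of the maternal copy. An intergenic DMR upstream of Meg3 sets this pattern, and a second DMR forms at the Meg3 promoter. Rasgrf1 encodes an exchange factor for Ras, is expressed from the paternal copy in brain, and has its DMR far upstream next to a tandem repeat. CTCF is a zinc finger protein that binds many such regions and at several of them avoids methylated DNA. A stretch methylated on 1 of both copies gives a share near the middle of the scale. The deposited counts are sums per CpG and hold neither single molecules nor alleles, so a middle share cannot be told apart from a mixture of cells.

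The REST knockout library held 273375318 observations, an observation being 1 read over 1 CpG, and the ChIP-BisSeq replicates held 13411280 and 25262179. The mean coverage per CpG, leaving out CpGs with more than 100 observations, was 7.88 in REST knockout and 0.596 and 1.05 in the replicates. Of the 39 member bins with at least 10 observations in every library, 6 differed between the replicates (Fisher's exact test, Benjamini-Hochberg adjusted over all bins), 15.4% against 15.0% of all bins tested. As a check of the genotype label, the Rest exon at chr5:77696957-77697848 had 0.293 observations per CpG in REST knockout, 0.683 in replicate 1 and 4.22 in replicate 2. In the same order, the exon at chr5:77695221-77695438 had 0.0857, 0 and 3.4. The last exon had 11.04, 0.852 and 2.12. Replicate 1 was too shallow at these exons to serve as a contrast.

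The sequences shown for the ChIP results are the 5 matches to the CTCF consensus that lie in bins with ChIP coverage. They are printed in a frame of 20 bp, of which only the inner part was compared with the consensus. Binding at the matches was not tested. Each is printed 5′ to 3′ on the strand of the match, from mm9, with CpGs in capitals. All 5 had 1 mismatch to the consensus.
Upstream of Dlk1, chr12:110676114-110676133, minus strand: gctgCGccccctgcCGgCGg
Between Dlk1 and Meg3, chr12:110738498-110738517, minus strand: gtgctgccatCGtgtggagg
Meg3, first site, chr12:110780377-110780396, minus strand: ccagCGccctcttgCGgcca
Meg3, second site, chr12:110781245-110781264, plus strand: CGCGCGccccctagCGgtct
Rasgrf1, chr9:89868799-89868818, plus strand: atggcaccatctcctggaca
The 4 matches on chromosome 12 contain at least 1 CpG each in the printed frame, and the second site in Meg3 contains 4, so methylation was read inside the frame. The match in Rasgrf1 contains none. In all, 31 matches with at most 1 mismatch were found on either strand of the member regions, and 12 of them had no CpG within 200 bp centred on the match, so no count could fall on them. Of the 5 matches with a CpG inside, 4 lay in a bin with ChIP coverage, and of the others 1 did. Bins holding such a match made up 8.33% of all bins of chromosome 12 and 9.83% of chromosome 9, and 71.7% and 69.4% of the CTCF-covered bins there.

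Methylation in REST knockout was first compared over whole segments. The 40 kb upstream of Dlk1 were 69.2% methylated (7707 observations), Meg3 was 69.5% methylated (7281 observations) and Rasgrf1 67.0% (12736 observations). The space between Dlk1 and Meg3 was 64.0% methylated, with a 95% Clopper-Pearson interval from 63.1% to 64.9%. Dlk1 itself was lower, at 35.6%, and the lowest segment was the 40 kb upstream of Rasgrf1 at 30.2%, with an interval from 29.1% to 31.4%. Of the 6103 observations upstream of Rasgrf1, 4416 lay in the low stretches around the DMR and at the gene start described below, and the rest were 65.0% methylated. Such intervals reflect counting error alone. Copies made by PCR from 1 molecule are counted more than once, and 1 read can span several CpGs.

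The replicates gave other shares over the same segments. In Meg3, 27.1% of the 719 observations of replicate 1 and 36.5% of the 1131 of replicate 2 were methylated. Upstream of Dlk1 the shares were 30.1% of 989 and 34.5% of 1477. Both segments read below REST knockout, and coverage per CpG there was 2.62 and 2.34 times the library mean in Meg3 and 3.07 and 2.60 times upstream of Dlk1. The gap lay in the bins with raised CTCF ChIP coverage described below. Without those bins, Meg3 was 74.2% methylated in REST knockout, 80.4% of 204 in replicate 1 and 77.3% of 427 in replicate 2. Likewise the 40 kb upstream of Dlk1 were at 69.9%, 74.3% of 280 and 67.8% of 580. Upstream of Rasgrf1 the order was turned, with 58.7% of 143 observations in replicate 1 and 57.0% of 412 in replicate 2. A smaller part of the replicates' observations lay in the low stretches. Without those stretches the share was 65.0% in REST knockout, 75.9% of 83 in replicate 1 and 86.0% of 229 in replicate 2. In Rasgrf1 itself, at 61.1% of 388 and 67.6% of 1062, the replicates lay on either side of REST knockout.

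At single CpGs with a coverage of at least 10 in REST knockout, 36.3% of 1147 CpGs in the Dlk1 and Meg3 regions were between 30% and 70% methylated. At Rasgrf1 the share was 26.5% of 691 CpGs, and over the genome it was 31.8%. The 40 kb upstream of Meg3 had the highest share, 47.3% of 273 CpGs. The 40 kb upstream of Rasgrf1 instead had 64.9% of 202 CpGs under 30%, against 26.5% of all CpGs.

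Per 1 kb, a bin was called half-methylated when 30% to 70% of at least 20 observations over at least 4 CpGs were methylated in REST knockout. By this rule 87 of 266 member bins were half-methylated, 32.7% against 41.2% of all bins tested, so the loci held no more such bins than the genome did. Among CpG-dense bins, those with at least 20 CpGs, 16 of 38 were half-methylated, 42.1% against 29.8%. By locus these were 15 of 27 at Dlk1 and Meg3 and 1 of 11 at Rasgrf1, a difference that was not tested. The 1 bin at Rasgrf1, in the gene body, was 68.4% methylated and lay next to the upper limit. The median over the CpG-dense bins was 50.0% at Dlk1 and Meg3, 68.4% at Rasgrf1 and 65.4% over the genome.

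**Figure D1:**
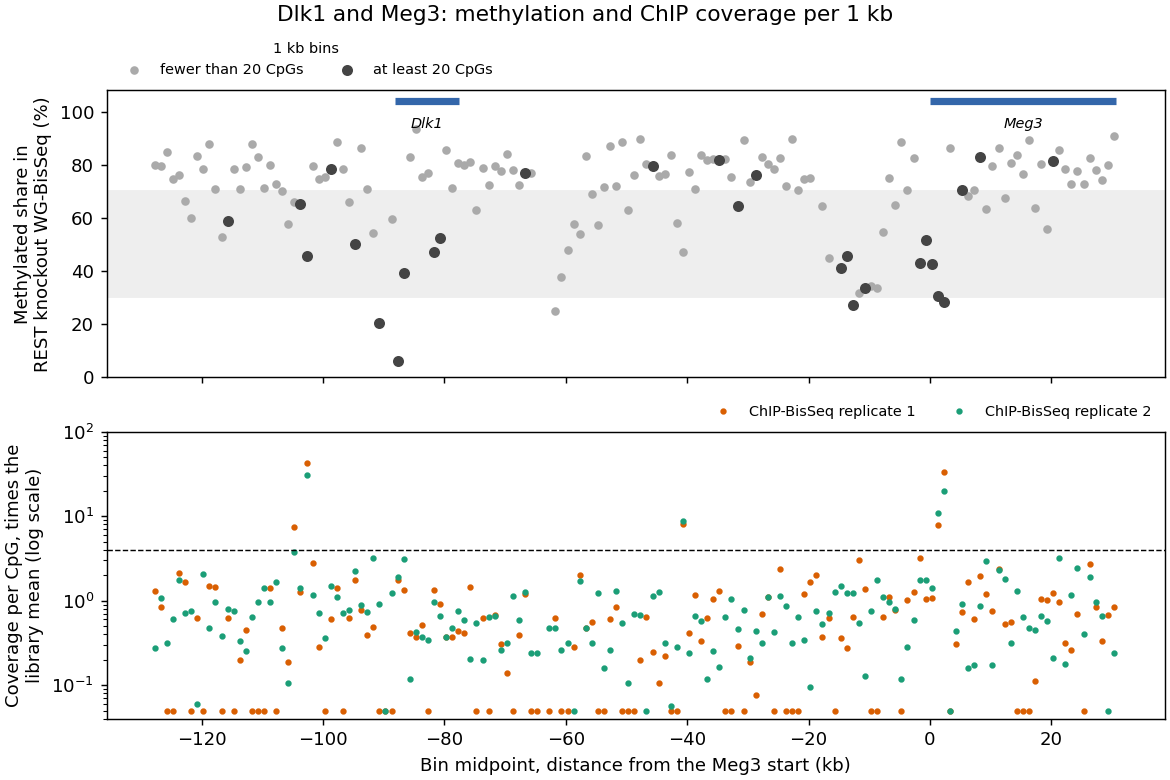
Each point is a 1 kb bin, placed by its distance from the Meg3 start in kb; the upper panel gives the methylated share in REST knockout with the half-methylated range in grey, the lower panel the coverage per CpG in each ChIP-BisSeq replicate relative to the library mean on a log scale, with values under 0.05 drawn at 0.05 and the limit of 4 times dashed. CpG-dense bins within the grey range gather upstream of Dlk1, in Dlk1, between the genes and at the Meg3 start, and 4 bins exceed the limit in both replicates.

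Of the 16 half-methylated CpG-dense bins, 10 formed 4 runs of at least 2 neighbours, all at Dlk1 and Meg3. How often such runs occur over the genome is not given here, so the runs only name places. The first run lay upstream of Dlk1, where the bins were 65.3% and 45.6% methylated. Other half-methylated CpG-dense bins upstream of Dlk1 stood alone, at 58.9% of 467 and 50% of 244 observations, and the bin 2.53 kb upstream of the Dlk1 start was lower, at 20.5% of 366. The second run lay in Dlk1, over chr12:110697001-110699000, where 47.2% of 642 and 52.6% of 1269 observations were methylated. This interval overlaps Dlk1 exons, and a secondary DMR is known in the last exon of Dlk1. Over its 49 CpGs that had 10 or more observations in REST knockout, the median was 51.2% with an SD of 15.9, from 25.0% to 92.9%. ChIP coverage there was low, and the methylated share was 55.6% of 45 in replicate 1 and 66.7% of 57 in replicate 2.

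The third run opened the longest stretch of lowered methylation, chr12:110764001-110772000, from 15.2 to 7.21 kb upstream of Meg3. The intergenic DMR is known to lie in this part of the space between the genes. A stretch was defined after the values were seen, as at least 3 neighbouring bins under 60% in REST knockout. Such stretches held 27 of 266 member bins, 10.2% against 6.84% of all bins tested, with 21 bins at Dlk1 and Meg3 and 6 at Rasgrf1. In order along the chromosome, the 8 bins of the intergenic stretch were 41.1%, 45.5%, 27.0%, 31.5%, 33.6%, 34.2%, 33.7% and 54.8% methylated, and the bin after them 75%. Over the stretch, 37.1% of 2501 observations were methylated, with an interval from 35.2% to 39.0%. The 112 CpGs covered 10 times or more had a median of 34.2% with an SD of 12.5, and 74 of them were between 30% and 70%. The stretch was therefore in the lower part of the half-methylated range, and its bin 12.7 kb upstream of Meg3 fell below that range.

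CTCF ChIP coverage was not raised in the intergenic stretch. Replicate 1 had 75 observations over its 176 CpGs, of which 12 were methylated, a share with an interval from 8.55% to 26.3%. Replicate 2 had 200 observations, of which 33.5% were methylated, with an interval from 27.0% to 40.5%. The interval of replicate 1 thus lay below those of replicate 2 and of REST knockout, while that of replicate 2 overlapped REST knockout. In the first 2 bins, where REST knockout was 43.6% methylated, replicate 1 had 0 of 12 observations methylated and replicate 2 had 42.4% of 92. The count of replicate 1 allows a share of up to 26.5% if observations are independent. They lay on 4 CpGs, with 6 of them on the CpG at position 110764146. Weighted to these CpGs, the REST knockout share was 17.3%. No test was made of the stretch as a whole.

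The fourth run lay at the Meg3 start and was part of a 5 kb stretch from 2.21 kb upstream to 2.79 kb downstream of it. Its bins were 43.1%, 51.8%, 42.6%, 30.6% and 28.2% methylated in REST knockout, and the bin after them was 86.4% methylated. The bin with the Meg3 start was the middle one, with 310 observations over 41 CpGs. In that bin the share was 30.8% of 26 for replicate 1 and 23.3% of 60 for replicate 2. Within the stretch the level fell along the transcript, and the 78 CpGs covered 10 times or more had a median of 35.9% with an SD of 18.9.

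The bin with the Dlk1 start contrasted with that of Meg3. Only 6.09% of its 2348 observations were methylated in REST knockout, 4.04% of 99 in replicate 1 and 5.35% of 187 in replicate 2. The next bin into the gene was 39.3% methylated in REST knockout, 39.1% of 23 observations in replicate 1 and 26.6% of 94 in replicate 2. The bin with the Dlk1 start was therefore low in all 3 libraries, but the middle range lay on both sides of its lowest part. In REST knockout, 55.4% of 195 observations were methylated at chr12:110690801-110691000, just upstream of the start. The next 200 bp, which hold the start, were at 37.1% of 62. The lowest 200 bp, at 2.42% of 661, were at chr12:110691401-110691600, within the gene.

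A further stretch between the genes, 25.97 to 30.97 kb downstream of the Dlk1 start, was CpG-poor. REST knockout had 46.9% of 243 observations methylated over 39 CpGs. The replicates had 9 of 10 and 18 of 19 observations methylated there. Only 6 of its CpGs had a coverage of at least 10 in REST knockout, so its profile could not be drawn CpG by CpG.

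**Figure D2:**
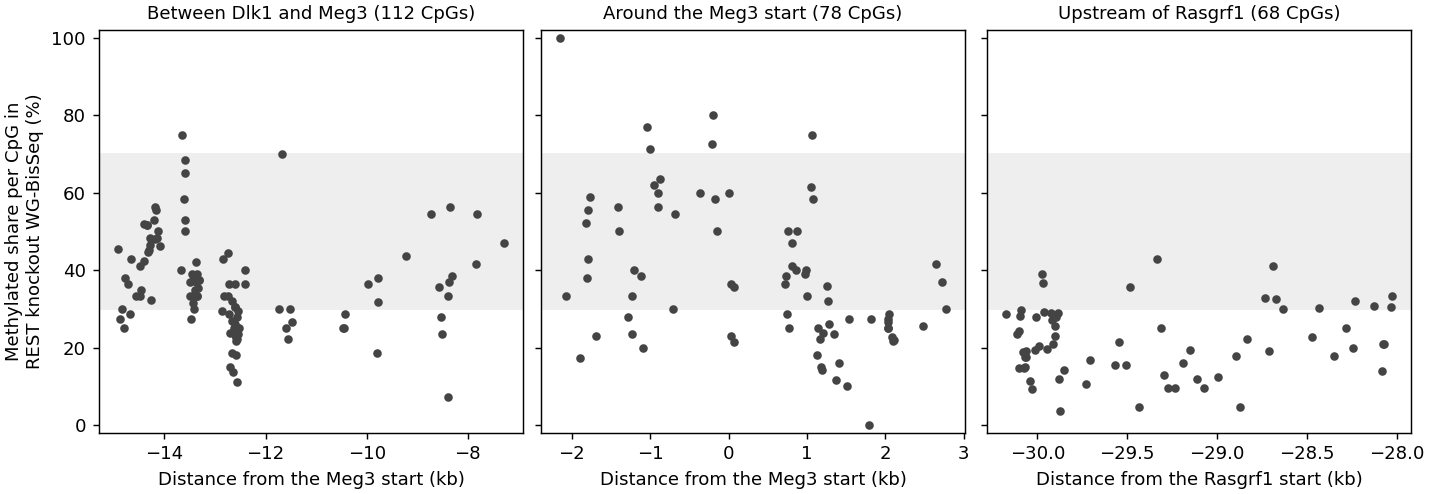
Each point is a CpG with a coverage of at least 10 in REST knockout, placed by its distance from the Meg3 or Rasgrf1 start in kb, with its methylated share on the vertical axis and the range of 30% to 70% in grey. The 112 intergenic CpGs scatter around a median of 34.2%, the 78 CpGs around the Meg3 start spread more widely around 35.9%, and the 68 CpGs upstream of Rasgrf1 lie around 20.7%.

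The corresponding stretch of Rasgrf1 lay 30.6 to 27.6 kb upstream of the gene, chr9:89774001-89777000, where the DMR and its tandem repeat are known. Its bins were 22.4%, 20.0% and 24.8% methylated in REST knockout, all below the half-methylated range. Over the stretch 22.1% of 2552 observations were methylated, with an interval from 20.5% to 23.7%. The 68 CpGs covered 10 times or more lay between 3.70% and 42.9%, with a median of 20.7% and an SD of 8.96. Of these CpGs, 13 were at 30% or above, and none exceeded 70%. The stretch of Rasgrf1 was thus lower than the intergenic stretch of Meg3, whose interval began at 35.2%, in the same library.

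The tandem repeat could be read from the genome. In windows of 400 bp, 11 of the 400 windows upstream of Rasgrf1 matched themselves at more than 60% of bases after a shift, whereas the median window reached 33.5%. The shift was 40 bp over chr9:89775013-89776412, and the best window reached 88.1%. Consecutive 40 bp pieces of that window, plus strand of mm9, with CpGs in capitals, show how alike the units are and that CpGs recur at some of the same places.
Piece 1, chr9:89775813-89775852: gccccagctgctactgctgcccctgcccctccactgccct
Piece 2, chr9:89775853-89775892: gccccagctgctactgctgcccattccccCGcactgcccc
Piece 3, chr9:89775893-89775932: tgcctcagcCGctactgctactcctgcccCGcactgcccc
Piece 4, chr9:89775933-89775972: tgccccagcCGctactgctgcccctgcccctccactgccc
The repeat held 33 CpGs, and REST knockout had 1151 observations on them, of which 20.9% were methylated. Replicate 1 had 1 observation on these CpGs and replicate 2 had 8. Coverage per CpG of the repeat was 4.43 times the library mean in REST knockout, but 0.0508 and 0.231 times in the replicates. Reads of near-identical units can be placed at more than 1 unit, so the counts of single repeat CpGs are uncertain. The part of this in the low ChIP coverage and the high REST knockout coverage was not tested.

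In the CpG-rich bin next to the repeat, chr9:89774001-89775000, the ChIP-BisSeq libraries were more methylated than REST knockout. The share was 22.4% of 1154 observations in REST knockout, 83.3% of 18 in replicate 1 and 57.7% of 52 in replicate 2. Adjusted p was 2.17e-06 and 1.96e-06 (Fisher's exact test, two-sided, Benjamini-Hochberg adjusted over 137258 bins). These values count CpGs of the same read separately and so overstate the evidence. Weighting the REST knockout CpGs by their coverage in each replicate left its share at 20.6% and 23.0%. The 18 observations of replicate 1 were spread over 13 CpGs with at most 2 at each. The 52 of replicate 2 were spread over 28 CpGs with at most 3 at each, so few molecules were read. The call was lost when 20 observations per library were required. The other bin called more methylated lay in a Rasgrf1 intron, chr9:89816001-89817000, with 46.8% of 79 observations in REST knockout, 12 of 12 in replicate 1 and 12 of 13 in replicate 2. There the observations of replicate 1 lay on 2 CpGs with at most 6 at each, and those of replicate 2 on 6 CpGs with at most 5 at each. These 2 bins of 39 made up 5.13%, close to the 4.89% of all bins tested, and are no result about these loci as a group. Neither bin had raised ChIP coverage.

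The Rasgrf1 promoter was hypomethylated in all libraries. The bin with the Rasgrf1 start had 6.57% of 1949 observations methylated in REST knockout, 0 of 21 in replicate 1 and 1.69% of 118 in replicate 2. Its neighbours were at 17.8% and 11.3% in REST knockout. ChIP coverage at these bins was within 2 times the library mean in both replicates, with the highest count of replicate 2 at this locus, 118 observations, in the bin with the start.

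**Figure D3:**
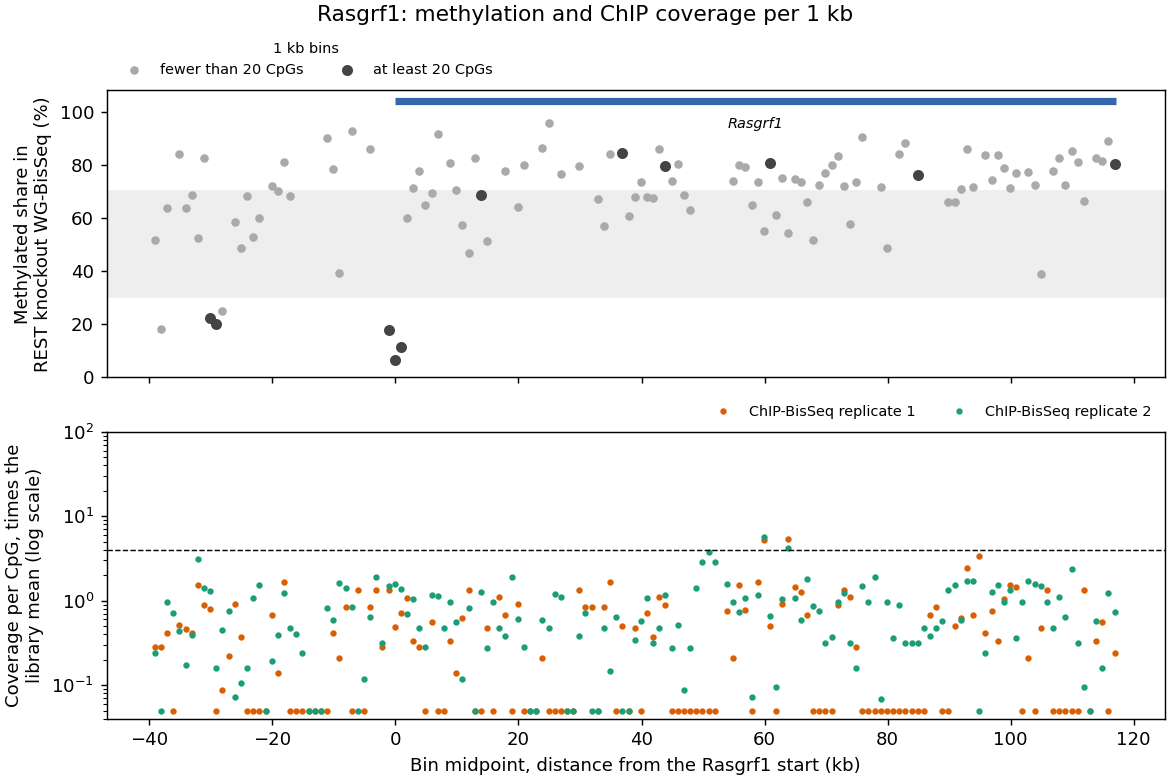
Each point is a 1 kb bin, placed by its distance from the Rasgrf1 start in kb, with the methylated share in REST knockout above and the coverage per CpG relative to the library mean below, on a log scale with values under 0.05 drawn at 0.05. The bins 30.1 and 29.1 kb upstream and those at the start are the CpG-dense bins below the grey range, and 2 bins in the gene body pass the limit of 4 times.

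CTCF-covered bins were those with at least 10 observations and at least 4 times the mean coverage per CpG in both replicates. The member regions held 6 of them, 1.91% of 314 bins against 1.28% of all bins. Of these, 4 lay at Dlk1 and Meg3 and 2 in Rasgrf1. None lay in the intergenic stretch of Meg3 or in the upstream stretch of Rasgrf1.

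The most covered bin lay 14.5 kb upstream of Dlk1, in intergenic sequence at chr12:110676001-110677000. It had 709 observations in replicate 1 and 897 in replicate 2, which is 42.5 and 30.5 times the library means. In REST knockout 45.6% of 241 observations were methylated, in replicate 1 12.7% of 709 and in replicate 2 13.0% of 897. The replicates agreed within counting error, and both were below REST knockout, with adjusted p = 2.34e-22 and 2.10e-23 (Fisher's exact test). The test counts CpGs of the same read separately. With only the 1 CpG of the bin best covered across the libraries, the difference was 4.23 points, ChIP-BisSeq minus REST knockout, on 10 observations in REST knockout, and the call was lost. That CpG, at position 110676063, was the most methylated of the 14 CpGs of chr12:110676001-110676200 in both replicates, at 51.4% and 37.0%. It therefore does not stand for the other CpGs of the site. The reads gathered in 200 bp around the CTCF match shown above, of which the plus strand is
Upstream of Dlk1, chr12:110676018-110676217: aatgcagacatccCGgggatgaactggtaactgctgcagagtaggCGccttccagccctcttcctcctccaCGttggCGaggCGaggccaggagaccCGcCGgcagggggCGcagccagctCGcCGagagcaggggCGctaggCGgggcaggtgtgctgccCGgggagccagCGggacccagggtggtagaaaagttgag

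Within 200 bp centred on that match, REST knockout itself was lower than over the bin, with 28.6% of 105 observations methylated. Replicate 1 had 8.85% of 655 and replicate 2 11.7% of 821. Inside the match the shares were 3 of 20 observations in REST knockout, 9 of 170 in replicate 1 and 15 of 223 in replicate 2. The difference was smaller once positions were matched. With the REST knockout CpGs weighted by ChIP coverage, replicate 1 was lower by 17.2 percentage points and replicate 2 by 17.5, against 32.9 and 32.6 over the bin, so that the matched differences were under the 20 points the rule asked for.

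The CpGs of this site were not alike. At position 110676063, 51 bp from the match, 18 of 35 observations in replicate 1 and 20 of 54 in replicate 2 were methylated, near the 4 of 10 in REST knockout. At position 110676118, inside the match, the counts were 0 of 61, 7 of 74 and 1 of 7. On the other side of the match the level stayed low, with 0 of 44 and 3 of 33 observations methylated at position 110676190. The bin 1 kb further from Dlk1 than the run, chr12:110674001-110675000, missed the coverage limit, with 7.50 times the library mean in replicate 1 and 3.76 times in replicate 2. It was 66.1% methylated in REST knockout, 53.9% of 76 in replicate 1 and 50.7% of 67 in replicate 2.

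Meg3 held a pair of neighbouring covered bins just downstream of its start, both overlapping exons. In the first, chr12:110780001-110781000, 30.6% of 421 observations were methylated in REST knockout, 9.40% of 117 in replicate 1 and 14.5% of 289 in replicate 2. In the second, chr12:110781001-110782000, the shares were 28.2% of 340, 5.03% of 398 and 9.88% of 415. Coverage there reached 33.4 and 19.8 times the library means. Both replicates were below REST knockout in both bins, with adjusted p from 1.99e-05 to 1.89e-16 (Fisher's exact test). Replicate 2 differed by 16.1 and 18.4 points, under the 20 points the rule asked for, so neither bin was called. Both were called with replicate 1 alone, and the second also with replicates pooled.

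At Meg3 the difference remained when positions were matched. Weighted by ChIP coverage, the REST knockout share in the second bin was 33.3% and 36.1%, and the replicates were lower by 28.3 and 26.2 points. In the first bin they were lower by 16.7 and 17.4 points. The difference was smaller with only the 1 best covered CpG of each bin. As ChIP-BisSeq minus REST knockout, it was then -4.02 points in the first bin and -14.9 in the second. Inside the second match, with its 4 CpGs, REST knockout had 18 of 68 observations methylated, replicate 1 had 6 of 173 and replicate 2 had 17 of 133. The sequence around this match, plus strand, is
Meg3, second site, chr12:110781145-110781344: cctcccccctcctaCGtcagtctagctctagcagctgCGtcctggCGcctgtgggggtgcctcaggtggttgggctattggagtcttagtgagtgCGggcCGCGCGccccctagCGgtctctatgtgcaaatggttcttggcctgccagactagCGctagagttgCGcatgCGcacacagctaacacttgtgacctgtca

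Of the 27 further Meg3 bins tested in REST knockout, 22 were over 70% methylated and 5 were half-methylated, from 55.9% to 90.9% with a median of 78.4%. In replicate 2, 12 of these bins had at least 10 observations, from 55.2% to 100% methylated with a median of 88.8%. At chr12:110787001-110788000, a CpG-dense bin in the gene, REST knockout had 82.9% of 269 observations methylated, replicate 1 40 of 40 and replicate 2 96.8% of 31. An exact match to the consensus in a Meg3 exon, chr12:110805001-110805020, had no CpG inside and lay in a bin without raised coverage. In the 200 bp around it, 71.2% of 111 observations were methylated in REST knockout, 60% of 15 in replicate 1 and 85% of 20 in replicate 2. An exact match upstream of Rasgrf1, chr9:89793046-89793065, had a CpG inside but no observation in any library.

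The covered bin between the genes, 40.7 kb upstream of Meg3, gave different shares in the replicates. REST knockout had 47.3% of 239 observations methylated, replicate 1 36.5% of 63 and replicate 2 15.7% of 121. The replicates differed from each other (adjusted p = 0.0243, Fisher's exact test), and against REST knockout the adjusted p was 0.258 for replicate 1 and 5.63e-08 for replicate 2. In the 200 bp around its match the replicates were closer, with 10.5% of 38 and 14.7% of 95 observations methylated and 40.3% of 62 in REST knockout. With replicate 2 alone or with replicates pooled, this bin was called less methylated.

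Both covered bins of Rasgrf1 lay in introns of the gene body and were weakly covered. At chr9:89868001-89869000, coverage was 5.31 and 4.21 times the library means. There 54.2% of 72 observations were methylated in REST knockout, 18.4% of 38 in replicate 1 and 9.43% of 53 in replicate 2, with adjusted p = 0.00294 and 2.74e-06 (Fisher's exact test). This bin and that upstream of Dlk1 were the 2 of 39 called less methylated in ChIP-BisSeq, 5.13% against 5.58% of all bins tested. In Rasgrf1 the difference was not seen once positions were matched, since the REST knockout share at the covered CpGs was 12.3% and 8.11%. REST knockout depth was low there. In the 200 bp around the CpG with most ChIP reads it had 1 of 17 observations methylated, with an interval from 0.149% to 28.7%. Within this limit of depth the site was low in both kinds of library. The half-methylated level of the bin came mostly from chr9:89868001-89868200. REST knockout had 33 of 42 observations methylated in that window, and the replicates together had 1 observation.

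The other bin of Rasgrf1, chr9:89864001-89865000, was covered 5.24 and 5.72 times the library means, on molecules that were mostly methylated in replicate 2. The shares were 55.1% of 69 observations in REST knockout, 52.0% of 25 in replicate 1 and 79.2% of 48 in replicate 2. Most of these reads lay on 3 CpGs, at which REST knockout had 4 observations. The CTCF consensus was not matched in this bin, and the nearest match lay 4723 bp away.

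**Figure D4:**
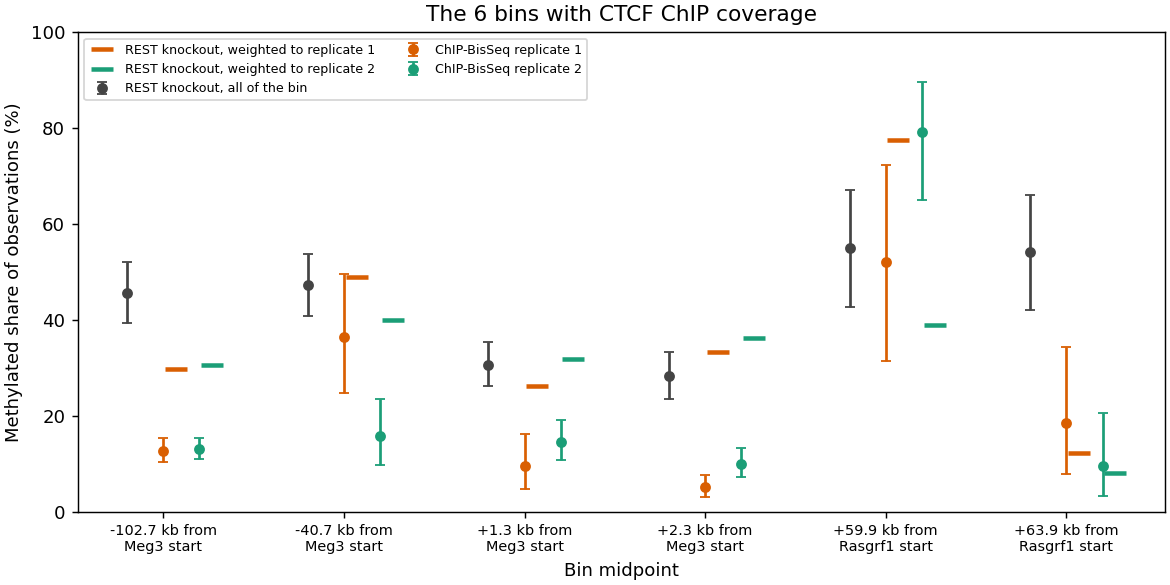
For the 6 CTCF-covered bins, placed by their distance from the Meg3 or Rasgrf1 start, points give the methylated share of all observations with 95% Clopper-Pearson intervals in REST knockout and in each replicate, and dashes give the REST knockout share weighted to the CpGs each replicate covered. At the 4 bins of Dlk1 and Meg3 the replicates lie below their dashes. At the bin 63.9 kb downstream of the Rasgrf1 start they lie 6.14 and 1.32 points above them. At the bin 59.9 kb downstream, replicate 1 lies below its dash and replicate 2 above its own.

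The position-matched difference was also computed over all CTCF-covered bins, so that the member values can be read against it. Over 29502 such bins the median, as the mean of both replicates minus REST knockout, was -1.09 percentage points, with quartiles of -11.8 and 8.39. The 4 bins of Dlk1 and Meg3 were at -17.4, -18.4, -17.0 and -27.3 points, all below the lower quartile. The bins of Rasgrf1 were at -6.67 and 3.73 points, within the quartiles, but the first of these averages -44.2 points in replicate 1 and 30.8 in replicate 2, which had opposite directions. These are descriptions, and no test was made of them. At H19, another paternally methylated locus, the covered bin at chr7:149766001-149767000 was 49.2% methylated in REST knockout and 9.30% of 215 and 17.97% of 384 observations in the replicates, lower by 49.3 and 31.5 points after matching. The replicates of this bin differed from each other (adjusted p = 0.0320, Fisher's exact test). The other covered bin of H19, chr7:149796001-149797000, was 20.7% methylated in REST knockout, 30.4% of 161 in replicate 1 and 26.8% of 194 in replicate 2. After matching it was lower by 8.12 and 13.7 points, on average by 10.9 points, which is within the quartiles.

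Other imprinted genes were read in the same way, in 1 kb centred on their start in REST knockout. The start of Meg3 was 49.0% methylated by this measure, that of Dlk1 26.6% and that of Rasgrf1 6.32%. Of 14 other imprinted genes with at least 20 observations, 2 were between 30% and 70%, 9 were lower and 3 higher, with a median of 25.4%. H19, the non-coding RNA of its domain, was at 48.0% and so next to Meg3. Of the neighbours in the same 2 domains, 7 had at least 20 observations. Begain and Dio3, at the ends of the Dlk1 and Meg3 domain, were at 3.99% and 3.68%, while Rtl1 and Mirg, within it, were at 79.1% and 80.0%. Near Rasgrf1, Ctsh was at 45.0%, Ankrd34c at 37.5% and Tmed3 at 5.12%. The start of Ctsh had ChIP coverage of 12.2 and 4.81 times the library means, with 9.66% of 145 and 12.9% of 101 observations methylated in the replicates.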

How the data were processed

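The authors deposited, for each library, whole-number counts per CpG without normalization, the observations and the methylated observations, aligned to mm9 (Bowtie 0.10.0.1 in the submitters' processing notes). Removal of PCR duplicates is not given in the sources used here. The ChIP-BisSeq DNA was amplified after bisulfite conversion, and REST knockout DNA by 10 cycles. CpGs that are not listed were given a coverage of 0. In replicate 1, 189 positions listed on mitochondrial DNA were left out of all bins, though the total of observations given above includes them. Bins of 1 kb, segments, windows of 200 bp and single CpGs were summed with Python 3.11.15, NumPy, pandas and SciPy on NCBIM37, which is mm9, with GENCODE vM1 genes. Fisher's exact test compared each replicate with REST knockout in bins with at least 10 observations in every library, adjusted over all such bins. It was also run on simulated data with independent observations. Those data lack shared reads and PCR copies, so they cannot show how the test behaves on the real counts. A bin was called when both adjusted p were under 0.05 and both differences were at least 20 percentage points. Replicates were not stated to be separate cultures, so p-values measure the spread of reads only. The CTCF consensus was searched on both strands, allowing 1 mismatch outside its positions 8, 11 and 16. Named were the member genes, the bins with their starts, runs of half-methylated CpG-dense bins, CTCF-covered bins, called bins and the most covered bin of each replicate. The members and lists were chosen with earlier results of these data known. Calls of higher methylation, stretches under 60% and position-matched shares were added after the values were seen. Alternatives changed limits, minimum counts, bin starts, replicates and the use of CpGs over 100 observations.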

Additional observations from a re-analysis of the deposited data

How the results depend on the processing

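With limits of 40% and 60%, 40 of 266 member bins (15.0% against 17.4% of all bins) and 10 of 38 CpG-dense bins (26.3% against 12.5%) were half-methylated, and with at least 30 CpGs per bin 3 of 12 were (25% against 16.8%). With 8 times the library mean 3 bins were CTCF-covered (0.955% against 0.754%). Without either replicate 6 to 7 were, and the share over all bins is not given here for that setting. Bins less methylated in ChIP-BisSeq numbered 4 of 39 without a minimum difference (10.3% against 8.61%), 4 of 35 with bins shifted by 500 bp (11.4% against 5.55%), 11 of 143 with replicates pooled (7.69% against 3.35%), 7 without replicate 1 (6.73% against 4.004%) and 8 without replicate 2 (16% against 8.14%). More methylated bins numbered 13 with replicates pooled (9.09% against 14.9%), 6 without replicate 1 (5.77% against 9.86%) and 5 without replicate 2 (10% against 18.8%). With at least 20 observations they numbered 0 of 19 (0% against 3.49%). None of these 19 bins was higher at an unadjusted p under 0.05 in Fisher's exact test. With only 1 CpG per bin, 5 bins could be tested, and 0 were called in either direction, adjusted or not. Over all bins, 0.880% were called less methylated and 0.555% more methylated at this setting. Between the replicates 0 of 7 bins read by 1 CpG differed, and 1 did before adjustment. The share over all bins is not given here for that comparison. At the bin upstream of Dlk1, the 1 CpG used gave a difference of 4.23 points, ChIP-BisSeq minus REST knockout, with 10 observations in REST knockout. The CpG used there was the one at position 110676063, the most methylated of its 200 bp in both replicates. Position-matched, the weakly covered bins of Rasgrf1 gave -6.67 and 3.73 points. At the first of these, the matched replicates were at -44.2 and 30.8 points, and the unmatched difference over the bin, 10.5 points, went from -3.07 to 24.1 when 1 replicate was left out. Of 45 segment values under alternatives, 30 stayed within their interval or replicate spread. Most of the other 15 moved when only CpGs with a coverage of at least 10 were averaged. No paired analysis was possible because there is only 1 REST knockout library. Depth limits the intergenic stretch of Meg3 and the repeat of Rasgrf1, where ChIP-BisSeq had few or no observations.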
